A study of Mus musculus with 6 samples.

Results

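DNA replication and nucleotide supply genes were measured by RNA sequencing in mouse cerebral cortex at postnatal day 8, and all 6 genes of the MCM helicase ring were higher in Pen-2 cKO than in control cortex. The set is a list of gene names that was chosen with earlier results of these data known, so counts over it are descriptive. It holds 46 of the 34745 genes in the table, each found once by its symbol. It covers origin recognition (6 genes), licensing loaders (2), the MCM ring (6), helicase activation (6), polymerases and primase (8), the sliding clamp and its loader (6), single-strand binding (3), Okazaki fragment processing (3), nucleotide supply (4) and chromatin assembly (2). Of these, 43 passed the filter on low values and entered the test.

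The 3 control samples had the genotype Pen-2 F/F, in which the gene for PEN-2 (*Psenen*) is floxed on both alleles, although the series' design text calls them wildtype. The 3 Pen-2 cKO samples had the genotype Pen-2 F/F; hGFAP-Cre, so they carried the same floxed alleles plus a Cre recombinase transgene driven by a human GFAP promoter. PEN-2 belongs to γ-secretase, a protease that cleaves Notch receptors among others, and the series title places its question in astrocytes and brain edema. The human GFAP promoter is known to drive Cre in radial glia as well, so recombination can reach neurons and glia that descend from them. Cre was present in the cKO group only, so an effect of the transgene and one of the deletion cannot be told apart. The labels number the samples but do not say that each is a separate animal, so each p reflects the spread among these libraries alone, which may be technical.

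*Psenen* measured 6.35, 6.86 and 7.32 FPKM in the controls against 3.56, 3.90 and 4.03 FPKM in cKO cortex, with no overlap (log2 fold change -0.82, SE 0.09, limma, adjusted p = 0.00441). FPKM is a fragment count scaled for gene length and library depth, and depths of 20226000 to 26810500 fragments per library were inferred from single-transcript genes. Excitatory neuron markers, which define the cortex, were detected (7 of 7 tested, summed level 355 to 416 FPKM in the controls against 309 to 391 FPKM in cKO cortex), whereas 5 of 6 cerebellar markers stayed under 0.5 FPKM in every library. Over all 14147 tested genes, 519 were higher and 264 lower, a split that turned to 312 and 346 with median-ratio scaling, 319 and 339 with upper-quartile scaling and 907 and 244 with equal sums. The median log2 fold change of all tested genes was 0.07. Single genes were tested against 0, and that shift was not taken off their values. The groups also differed in a marker of adjoining tissue. *Ttr*, a choroid plexus gene, measured 33.08, 103.5 and 178.1 FPKM in the controls against 323.8, 181.8 and 876.5 FPKM in cKO cortex. Every cKO library lay above every control library, with cKO replicate 3 the highest, although the gene did not pass (log2 difference 2.13, SE 0.80, limma, adjusted p = 0.187).

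Cells license their origins before S phase. The origin recognition complex (ORC) binds DNA, CDC6 and CDT1 load the MCM2 to MCM7 ring onto it, and CDC45 and the GINS proteins then turn that ring into a moving helicase. DNA polymerase α with primase starts each strand, polymerases δ and ε extend them with the PCNA clamp, and ribonucleotide reductase, thymidylate synthase and thymidine kinase supply the nucleotides. Many of these genes are transcribed at the G1/S boundary under E2F transcription factors, while in neurons, which no longer divide, most are low. At this age the dividing cells of the cortex include oligodendrocyte precursors, young astrocytes, microglia and vascular cells.

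Promoters of the MCM ring genes are shown because this was the one group in which all members rose, together with that of the clamp loader gene *Rfc3*, which holds the same motif and did not pass. The sequences are those of RefSeq on GRCm38.p6 (mm10), from 250 bases before to 50 bases after an annotated start, read 5′ to 3′ on the strand of the gene. Capitals mark matches to an E2F motif, searched as TTTGGCGC, TTTCCCGC, TTTGGCGG, TTTCCCGG or TTTCGCGC on both strands, with overlapping matches run together.
Mcm3 (chr1:20820263-20820562, minus strand): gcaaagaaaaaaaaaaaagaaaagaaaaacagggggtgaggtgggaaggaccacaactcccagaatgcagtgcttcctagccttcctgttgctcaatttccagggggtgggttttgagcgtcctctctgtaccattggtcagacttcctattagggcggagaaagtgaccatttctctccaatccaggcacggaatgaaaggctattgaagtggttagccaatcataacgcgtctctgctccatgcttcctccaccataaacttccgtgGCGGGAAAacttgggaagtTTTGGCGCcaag
Mcm5 (chr8:75109259-75109558, plus strand): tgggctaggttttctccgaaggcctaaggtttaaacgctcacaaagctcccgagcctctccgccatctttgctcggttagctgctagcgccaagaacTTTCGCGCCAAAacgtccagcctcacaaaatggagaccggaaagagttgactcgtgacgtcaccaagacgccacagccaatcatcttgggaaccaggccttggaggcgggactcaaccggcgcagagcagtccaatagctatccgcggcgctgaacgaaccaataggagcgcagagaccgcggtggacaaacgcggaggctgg
Mcm6 (chr1:128359656-128359955, minus strand): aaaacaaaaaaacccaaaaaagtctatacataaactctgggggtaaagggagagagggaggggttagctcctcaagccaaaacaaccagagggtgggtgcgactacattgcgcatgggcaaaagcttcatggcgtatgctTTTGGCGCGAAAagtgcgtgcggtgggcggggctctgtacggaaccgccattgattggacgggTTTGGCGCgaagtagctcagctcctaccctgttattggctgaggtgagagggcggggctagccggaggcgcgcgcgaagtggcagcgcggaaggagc
Mcm7 (chr5:138171834-138172133, minus strand): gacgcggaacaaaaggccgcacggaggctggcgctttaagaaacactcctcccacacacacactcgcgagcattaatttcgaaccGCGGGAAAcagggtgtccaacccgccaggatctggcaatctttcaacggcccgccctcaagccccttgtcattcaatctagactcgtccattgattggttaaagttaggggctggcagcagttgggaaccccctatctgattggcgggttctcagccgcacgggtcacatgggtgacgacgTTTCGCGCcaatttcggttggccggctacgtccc
Mcm2 (chr6:88898731-88899030, minus strand): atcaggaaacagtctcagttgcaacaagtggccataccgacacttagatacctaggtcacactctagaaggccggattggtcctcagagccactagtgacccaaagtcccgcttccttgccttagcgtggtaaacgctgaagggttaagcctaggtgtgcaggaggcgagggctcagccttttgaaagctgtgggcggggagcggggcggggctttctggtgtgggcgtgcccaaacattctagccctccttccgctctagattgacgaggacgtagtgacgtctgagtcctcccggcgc
Rfc3 (chr5:151651159-151651458, minus strand): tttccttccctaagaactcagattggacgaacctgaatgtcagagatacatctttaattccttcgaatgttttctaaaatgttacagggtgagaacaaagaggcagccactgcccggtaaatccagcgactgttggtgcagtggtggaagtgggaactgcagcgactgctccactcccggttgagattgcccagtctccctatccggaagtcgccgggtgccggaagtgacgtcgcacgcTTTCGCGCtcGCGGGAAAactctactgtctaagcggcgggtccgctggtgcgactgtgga

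Of the 5 ring genes with a promoter in that table, 4 held the motif, *Mcm6* at 3 places and *Mcm3*, *Mcm5* and *Mcm7* at 2 each, and *Mcm2* had no match to these letters. Counted from the start, the first match began at base -153 in *Mcm5*, -110 in *Mcm6* and -165 in *Mcm7*, whereas in *Mcm3* both lay after the start, from bases 20 and 39. *Mcm7* has a further annotated start, whose window held no match. Across the 39 members with a promoter, 18 (46.2%) held a match, against 4.1% of the 27025 genes in the promoter table and 7.08% of the tested genes found there. The share was 5 of 10 among members that rose and 11 of 26 (42.3%) among tested members that did not pass, a difference that was not tested. The NF-Y box CCAAT was present in 25 of 39 members (64.1%, against 41.1% of all genes), in 9 of 10 that rose and in 14 of 26 (53.8%) of those that did not pass. A match of letters is a description and does not show binding.

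Among the 43 tested members, 11 rose and none fell. For comparison, 3.67% of all tested genes were called higher and 1.87% lower. The genes were *Mcm2*, *Mcm3*, *Mcm4*, *Mcm5*, *Mcm6* and *Mcm7*, the helicase activator *Cdc45*, the polymerase δ subunits *Pold1* and *Pold2*, and the ribonucleotide reductase subunits *Rrm1* and *Rrm2*. The median log2 fold change of the tested members was 0.31, against 0.07 for all tested genes, and 41 of 43 were above 0, against 63.6% of tested genes. All cKO libraries lay above all control libraries for 28 of the 43 members, against 21.5% of tested genes, and 24 were higher at an unadjusted p under 0.05, against 16.5%. The summed level of all 46 members was 154 to 164 FPKM in the controls against 198 to 201 FPKM in cKO cortex. No cKO library stood apart in this set: the members' median deviation from the control mean was 0.41, 0.34 and 0.32 on the log2 scale in cKO replicates 1, 2 and 3. One member, *Tyms*, had no control library at the filter level and passed through its cKO libraries alone. *Pole*, *Tk1* and *Chaf1b* had 1 control library each at that level, so they too entered the test through their cKO libraries. The counts above include these genes.

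**Figure D1:**
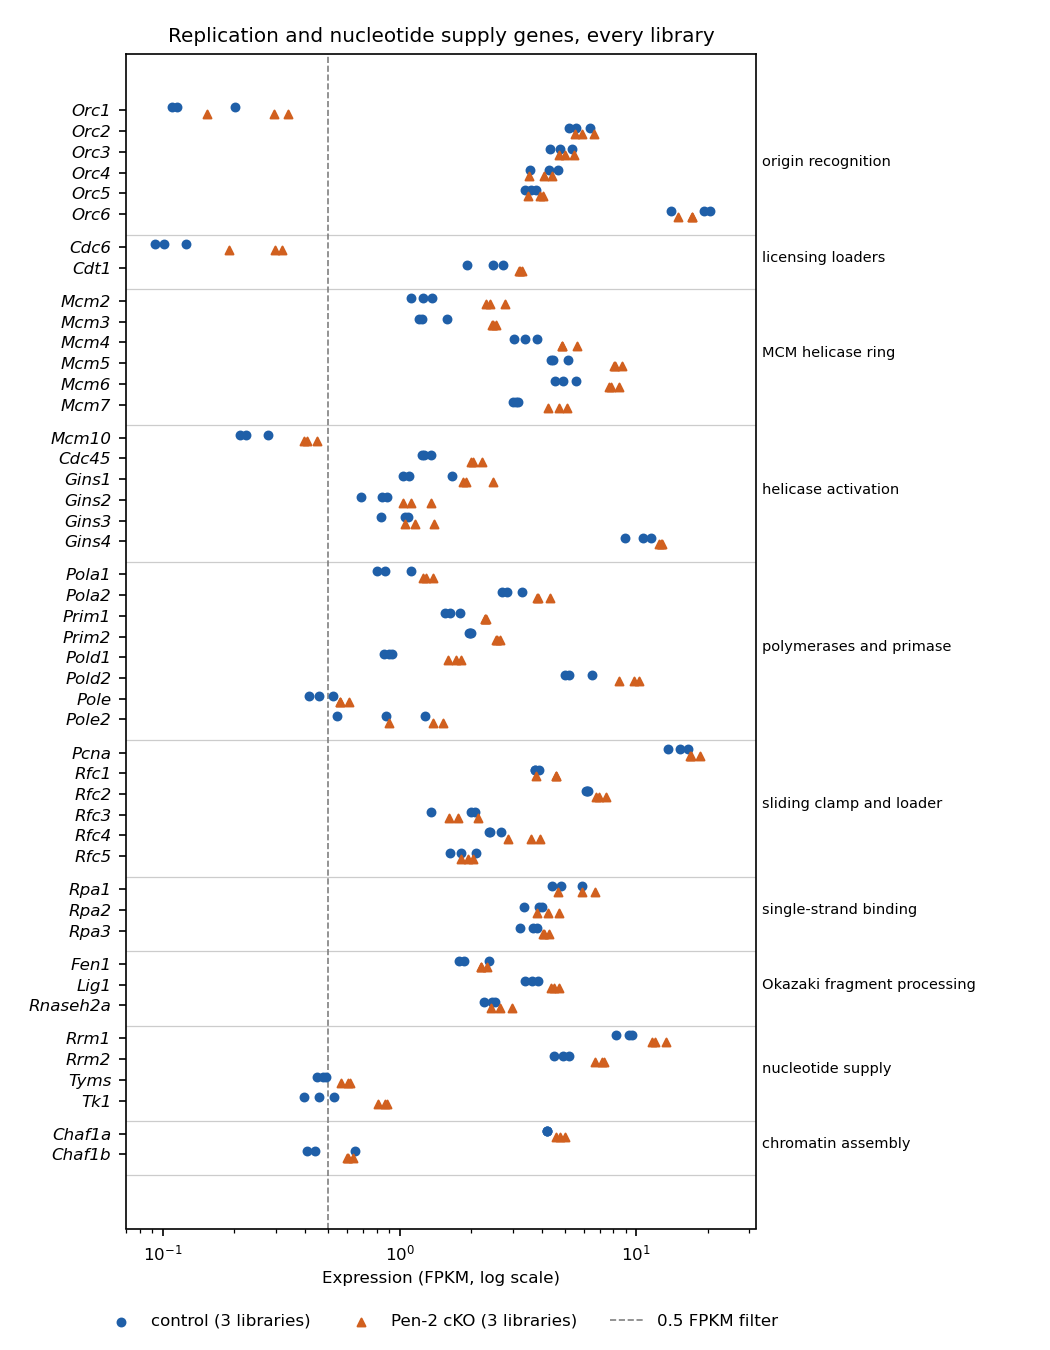
Level of each of the 46 genes in every library, in FPKM on a log axis, with circles for the 3 control and triangles for the 3 Pen-2 cKO libraries and a dashed line at the 0.5 FPKM filter. The triangles lie to the right of all circles for every MCM ring gene, whereas circles and triangles mix for the origin recognition genes.

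**Figure D2:**
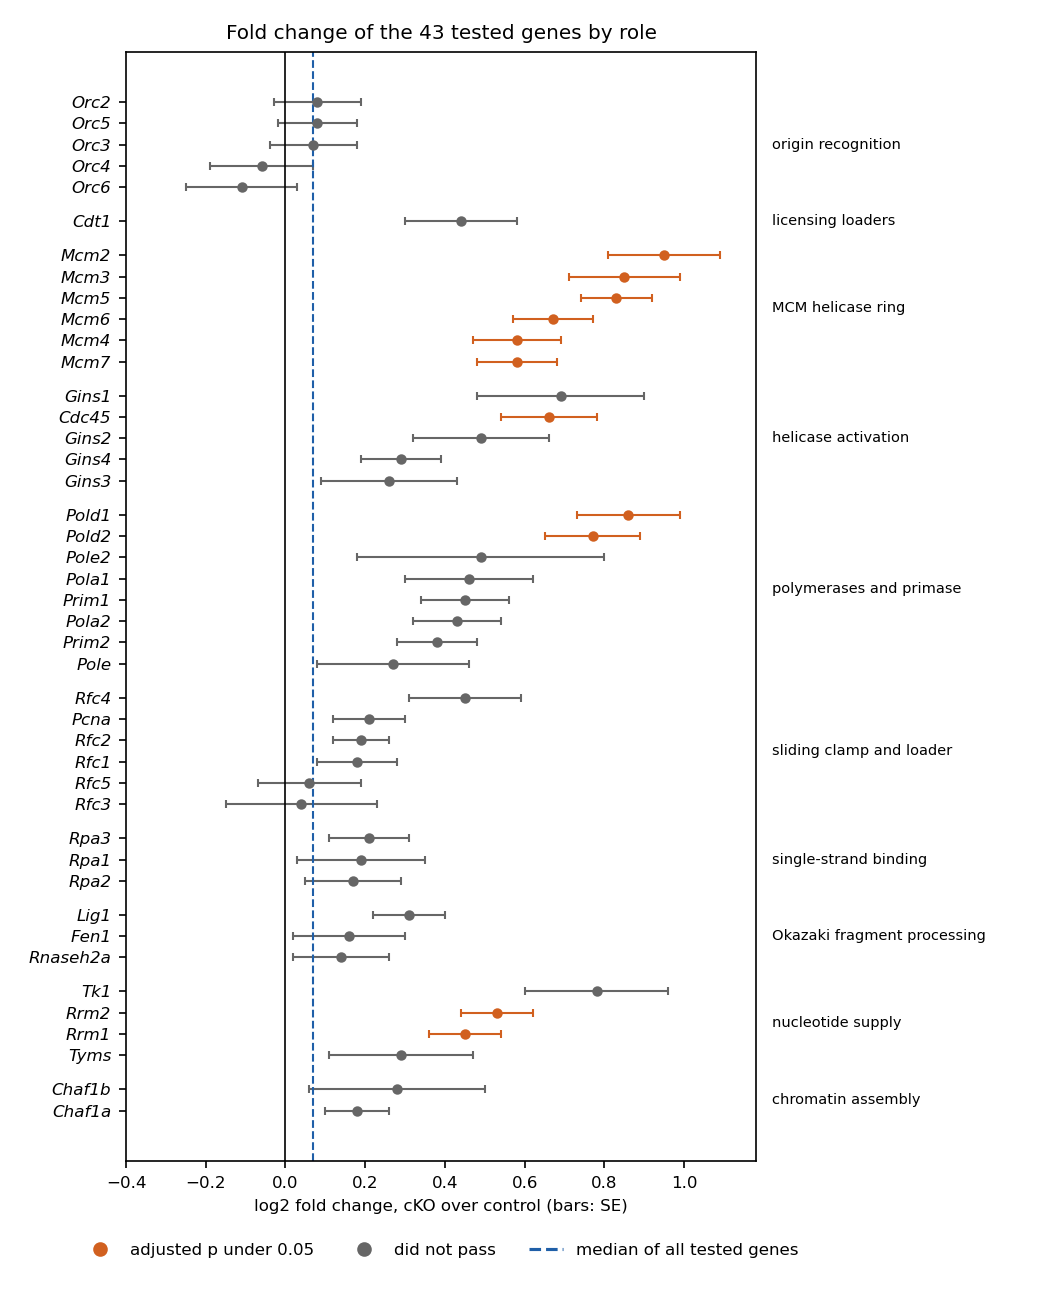
Log2 fold change (cKO over control, bars show the SE) of the 43 tested genes by role, with genes at an adjusted p under 0.05 in orange and the median of all tested genes (0.07) as a dashed line. The 11 orange points lie in the MCM ring, helicase activation, polymerase and nucleotide supply groups, and the origin recognition genes lie between -0.11 and 0.08.

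The count rested on the full set of libraries. Leaving out control replicate 1 gave 3 members, control replicate 2 gave 2 and control replicate 3 gave 10. Leaving out cKO replicate 1, in turn, gave 4, cKO replicate 2 gave 3 and cKO replicate 3 gave 8. *Mcm5* and *Mcm6* passed in all 6 of these fits and *Mcm2* in 5, with an adjusted p of 0.0549 without control replicate 2. *Mcm7* passed in 3, *Mcm3*, *Pold1*, *Pold2* and *Rrm2* in 2 each, *Cdc45* in 1, and *Mcm4* and *Rrm1* in none. No member changed direction among these 11. *Gins1*, by contrast, passed only without control replicate 3 (adjusted p = 0.04).

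The MCM ring was higher as a whole. The summed level of its 6 genes measured 18.1, 18.6 and 19.4 FPKM in the controls against 29.8, 30.9 and 32.5 FPKM in cKO cortex, 1.66 times the control mean. *Mcm5* (ENSMUSG00000005410, mm10 chromosome 8, 75109528 to 75128439) measured 4.351, 4.429 and 5.134 FPKM in the controls against 8.117, 8.027 and 8.739 FPKM in cKO cortex. It had the smallest adjusted p of the set (log2 fold change 0.83, SE 0.09, limma, adjusted p = 0.004), and the groups were well apart. *Mcm2* (ENSMUSG00000002870, chromosome 6, 88883474 to 88898780) measured 1.121, 1.258 and 1.374 FPKM in the controls against 2.321, 2.414 and 2.779 FPKM in cKO cortex. Its log2 fold change of 0.95 (SE 0.14, adjusted p = 0.011) was the largest among the tested members, and even the lowest cKO library exceeded the highest control library. *Mcm3* (ENSMUSG00000041859, chromosome 1, 20802968 to 20820312) measured 1.241, 1.208 and 1.589 FPKM in the controls against 2.457, 2.474 and 2.553 FPKM in cKO cortex (log2 fold change 0.85, SE 0.14, adjusted p = 0.0175). For this gene the cKO libraries were nearly equal and the spread lay in the controls.

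*Mcm6* (ENSMUSG00000026355, chromosome 1, 128331590 to 128359664) measured 4.524, 5.535 and 4.921 FPKM in the controls against 7.814, 7.687 and 8.438 FPKM in cKO cortex (log2 fold change 0.67, SE 0.10, adjusted p = 0.0114). *Mcm4* measured 3.788, 3.040 and 3.383 FPKM in the controls against 4.856, 5.604 and 4.873 FPKM in cKO cortex (log2 fold change 0.58, SE 0.11, adjusted p = 0.0335). *Mcm7* measured 3.116, 3.167 and 3.012 FPKM in the controls against 4.243, 4.695 and 5.109 FPKM in cKO cortex (log2 fold change 0.58, SE 0.10, adjusted p = 0.0216). None of these genes had overlapping groups, but the *Mcm4* call ended with median-ratio scaling (adjusted p = 0.0506) and with no filter (adjusted p = 0.0591). *Mcm7* shares 7.3% of its exonic bases with *Ap4m1* and 1.4% with *Cops6* on the opposite strand, and no source used here says whether counting used strand. The ring proteins assemble in equal numbers, yet the FPKM values of their genes were unequal. FPKM compared between genes also depends on the effective length, which is unknown for genes with several transcripts. In control cortex *Mcm6* (mean 4.99 FPKM) and *Mcm5* (4.64 FPKM) overlapped at the top, *Mcm4* (3.40 FPKM) and *Mcm7* (3.10 FPKM) overlapped in the middle, and *Mcm3* (1.35 FPKM) and *Mcm2* (1.25 FPKM) overlapped at the bottom. The same 3 pairs had overlapping libraries in cKO cortex, in the order *Mcm5* (8.29 FPKM) and *Mcm6* (7.98 FPKM), *Mcm4* (5.11 FPKM) and *Mcm7* (4.68 FPKM), and *Mcm2* (2.50 FPKM) and *Mcm3* (2.49 FPKM).

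**Figure D3:**
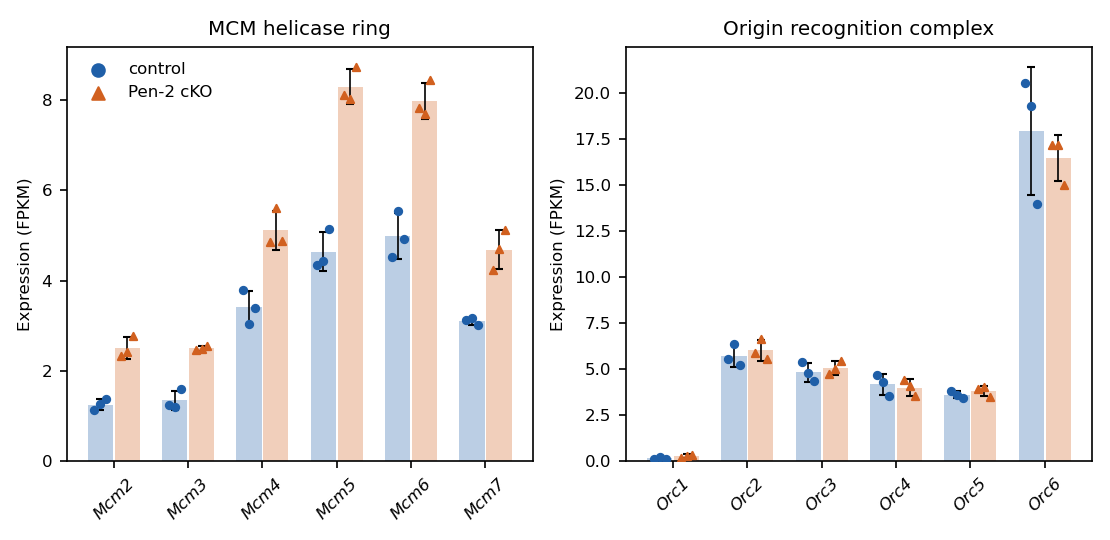
FPKM of the 6 MCM ring genes (left) and the 6 origin recognition genes (right) on linear axes that differ in range, with bars for the group mean, error bars for the SD (n = 3 per group) and points for single libraries. Every cKO point of the ring genes lies above the control points, and for *Orc2* to *Orc6* the points overlap.

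Origin recognition genes, whose proteins mark where the ring is loaded, did not pass (limma), and 0 of the 5 tested reached an unadjusted p under 0.05. *Orc2*, *Orc3*, *Orc4*, *Orc5* and *Orc6* had log2 differences of 0.08 (SE 0.11), 0.07 (SE 0.11), -0.06 (SE 0.13), 0.08 (SE 0.10) and -0.11 (SE 0.14), and the libraries of the groups overlapped for each. Whether they changed differently from the ring genes was not tested. Their summed level measured 39.9, 38.3 and 30.4 FPKM in the controls against 36.1, 36.8 and 33.0 FPKM in cKO cortex, so the cKO libraries lay within the control range. *Orc6*, a small subunit that also acts outside the complex, had the highest control mean of the 46, at 20.53, 19.26 and 13.96 FPKM against 17.16, 17.13 and 15 FPKM in cKO. Its exons overlap those of *Vps35*, a gene at 85.7 FPKM, over 6.9% of their bases on the opposite strand. On the opposite strand, *Orc2* shares 29.8% of its exonic bases with *Nif3l1* at 2.83 FPKM and *Orc4* 6.0% with *Acvr2a* at 19.8 FPKM. *Orc1* shares 10.8% with *Gm12743* at 0.302 FPKM, also on the opposite strand. *Orc1*, the subunit that is made anew in each cycle, was under the filter at 0.1154, 0.2016 and 0.1095 FPKM in the controls against 0.1535, 0.2956 and 0.3385 FPKM in cKO cortex. Those values stand for about 8 to 27 fragments per library on its longest transcript, and its groups overlapped. With no filter its log2 fold change was 0.56 (SE 0.30, limma, adjusted p = 0.412).

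Neither loader gene was called, *Cdt1* because it missed the threshold and *Cdc6* because it was too low to be tested. *Cdt1* measured 2.493, 2.729 and 1.928 FPKM in the controls against 3.218, 3.203 and 3.288 FPKM in cKO cortex, without overlap, and did not pass (log2 difference 0.44, SE 0.14, adjusted p = 0.12). *Cdc6* was under the filter, at 0.1009, 0.0924 and 0.1253 FPKM in the controls against 0.1903, 0.3186 and 0.2984 FPKM in cKO cortex, or about 9 to 40 fragments each. Its groups did not overlap, and with no filter its log2 difference was 0.82 (SE 0.24, limma, adjusted p = 0.156).

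Of the helicase activation genes, *Cdc45* rose. This gene, whose protein binds the ring to form the active helicase (ENSMUSG00000000028, chromosome 16, 18780447 to 18811987), measured 1.268, 1.354 and 1.240 FPKM in the controls against 2.033, 2.009 and 2.224 FPKM in cKO cortex (log2 fold change 0.66, SE 0.12, adjusted p = 0.0252). It shares 6.0% of its exonic bases with *Ufd1* on the opposite strand. The GINS genes, which encode the other partner of the ring, had log2 differences of 0.69 (*Gins1*, SE 0.21), 0.49 (*Gins2*, SE 0.17), 0.26 (*Gins3*, SE 0.17) and 0.29 (*Gins4*, SE 0.10), with adjusted p values from 0.105 to 0.432. Libraries overlapped only for *Gins3* among these 4. Over all tested genes, 21.5% had every cKO library above every control library. *Gins2* shares 67.3% of its exonic bases with *Gse1* on the opposite strand, so its value is uncertain. *Mcm10*, which helps to start the helicase, was under the filter at 0.2796, 0.2113 and 0.2244 FPKM in the controls against 0.4072, 0.4491 and 0.3955 FPKM in cKO cortex (about 21 to 57 fragments). With no filter its log2 difference was 0.62 (SE 0.20, limma, adjusted p = 0.182), and its groups did not overlap.

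Among polymerase genes, both subunits of polymerase δ in the set rose. *Pold1*, its catalytic subunit (ENSMUSG00000038644, chromosome 7, 44532746 to 44548849), measured 0.861, 0.932 and 0.906 FPKM in the controls against 1.600, 1.814 and 1.725 FPKM in cKO cortex (log2 fold change 0.86, SE 0.13, adjusted p = 0.0143). *Pold2*, an accessory subunit (ENSMUSG00000020471, chromosome 11, 5872180 to 5878292), measured 4.987, 5.215 and 6.466 FPKM in the controls against 10.29, 9.727 and 8.445 FPKM in cKO cortex (log2 fold change 0.77, SE 0.12, adjusted p = 0.0168). The groups did not overlap for either gene. Polymerase ε, which copies the leading strand, was measured less precisely: *Pole* had a log2 difference of 0.27 (SE 0.19, adjusted p = 0.452) and *Pole2* one of 0.49 (SE 0.31, adjusted p = 0.402), with *Pole2* at 0.873, 1.282 and 0.546 FPKM in the controls against 1.526, 1.379 and 0.902 FPKM in cKO cortex. Whether the δ and ε subunits changed differently was not tested. The 4 genes of polymerase α and primase lay close together, at log2 differences of 0.46 (*Pola1*, SE 0.16), 0.43 (*Pola2*, SE 0.11), 0.45 (*Prim1*, SE 0.11) and 0.38 (*Prim2*, SE 0.10). None passed (limma), with adjusted p values from 0.0664 to 0.15. Their cKO libraries all lay above the control libraries, as was so for 21.5% of all tested genes. *Prim2* measured 1.956, 1.983 and 2.010 FPKM in the controls against 2.662, 2.588 and 2.561 FPKM in cKO cortex, among the tightest replicates of the set. *Pola2* and *Prim1* passed with equal sums (adjusted p = 0.0465 and 0.0429), and *Prim1* and *Prim2* with no mean-variance trend (adjusted p = 0.0362 and 0.0335).

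None of the 14 genes for the clamp, its loader, single-strand binding, Okazaki fragments or chromatin assembly passed (limma). Of these, 4 (*Pcna*, *Rfc2*, *Rfc4* and *Lig1*) were higher at an unadjusted p under 0.05, against 16.5% of all tested genes. *Pcna*, the sliding clamp, which also serves DNA repair, measured 13.57, 15.23 and 16.54 FPKM in the controls against 16.99, 18.65 and 16.86 FPKM in cKO cortex (log2 difference 0.21, SE 0.09, adjusted p = 0.197), with the groups just apart. The 5 subunits of its loader ranged from 0.04 (*Rfc3*, SE 0.19) to 0.45 (*Rfc4*, SE 0.14, adjusted p = 0.109), with *Rfc1*, *Rfc2* and *Rfc5* at 0.18, 0.19 and 0.06, and libraries overlapped for *Rfc1*, *Rfc3* and *Rfc5*. *Rfc3* and *Rfc5* turned to -0.03 and -0.01 with median-ratio scaling. *Rfc4* shares 12.7% of its exonic bases with *Eif4a2*, at 19.4 FPKM, and *Rfc5* 10.7% with *Wsb2*, at 78.0 FPKM, both on the opposite strand. The replication protein A genes, which coat single strands, had log2 differences of 0.19 (*Rpa1*, SE 0.16), 0.17 (*Rpa2*, SE 0.12) and 0.21 (*Rpa3*, SE 0.10). Of the Okazaki fragment genes, the ligase gene *Lig1* had a log2 difference of 0.31 (SE 0.09, adjusted p = 0.102) and its groups did not overlap. The flap nuclease gene *Fen1* (0.16, SE 0.14) and the ribonuclease gene *Rnaseh2a* (0.14, SE 0.12) had overlapping groups, and *Fen1* shares 78.8% of its exonic bases with an antisense gene at 0.039 FPKM and 5.4% with *Tmem258* at 15.3 FPKM. *Rnaseh2a* shares 5.0% with *Prdx2* at 69.6 FPKM, also on the opposite strand. The chromatin assembly factor genes *Chaf1a* and *Chaf1b*, whose proteins place histones on new DNA, had log2 differences of 0.18 (SE 0.08) and 0.28 (SE 0.22). *Chaf1a* shares 52.5% of its exonic bases with *Ubxn6* on the opposite strand.

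Both ribonucleotide reductase genes of the set rose. This enzyme makes deoxyribonucleotides, with *Rrm1* encoding the large subunit and *Rrm2* the small subunit of dividing cells. *Rrm1* (ENSMUSG00000030978, chromosome 7, 102441695 to 102469771) measured 9.544, 9.276 and 8.207 FPKM in the controls against 11.96, 11.65 and 13.39 FPKM in cKO cortex (log2 fold change 0.45, SE 0.09, adjusted p = 0.032). *Rrm2* (ENSMUSG00000020649, chromosome 12, 24708241 to 24714146) measured 4.476, 4.885 and 5.210 FPKM in the controls against 7.137, 7.304 and 6.668 FPKM in cKO cortex (log2 fold change 0.53, SE 0.09, adjusted p = 0.0196). The *Rrm1* call ended with no filter (adjusted p = 0.0583) and with no mean-variance trend (adjusted p = 0.0589). *Tk1*, the cytosolic thymidine kinase of S phase, measured 0.457, 0.394 and 0.528 FPKM in the controls against 0.889, 0.866 and 0.813 FPKM in cKO cortex. Only 1 control library reached 0.5 FPKM, so the gene passed the filter through its cKO libraries and its difference has no weight of its own. *Tk1* did not pass (log2 difference 0.78, SE 0.18, limma, adjusted p = 0.0528). It was called with a pseudocount of 1 (adjusted p = 0.0484) and with equal sums (adjusted p = 0.0378). Fitting with no mean-variance trend also gave a call (adjusted p = 0.0169), and these calls have no weight either. *Tyms*, which makes thymidylate, measured 0.487, 0.450 and 0.474 FPKM in the controls against 0.618, 0.606 and 0.568 FPKM in cKO cortex (log2 difference 0.29, SE 0.18, adjusted p = 0.383).

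Ratios of 6 gene pairs within a library were taken on FPKM + 0.1, each with a member of the set as numerator. Scaling between libraries cancels in them apart from the added 0.1, which shifts the ratios of low genes such as *Tk1*, *Orc1* and *Mcm10*. The log2 ratio of *Tk1* to *Tk2*, the mitochondrial thymidine kinase, was -5.16, -5.39 and -4.87 in control and -4.39, -4.35 and -4.37 in cKO libraries. The ratio of *Rrm2* to *Rrm2b*, the small subunit used outside S phase, was 0.42, 0.27 and 0.21 in control and 0.81, 0.69 and 0.77 in cKO libraries. Both were higher in 3 of 3 cKO libraries, by 0.77 and 0.46, with the smallest p that 3 against 3 samples allow (two-sided exact permutation test, p = 0.1, adjusted p = 0.3 over the 6 pairs). The pairs *Orc1* to *Orc2*, *Mcm10* to *Mcm8*, *Orc6* to *Orc5* and *Rrm2* to *Rrm1* differed by 0.49, 0.33, -0.19 and 0.08, with exact permutation p values of 0.2, 0.3, 0.4 and 0.8 and overlapping groups.

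Other genes of the replication pathway moved in part. In 6 further lists with 111 genes, 102 were tested, with a median log2 fold change of 0.21. Of these, 8 were called higher, *E2f2* among them, against 3.67% of all tested genes, and none lower. Of 18 fork protein genes tested, 3 rose: *Top2a*, a topoisomerase that also serves mitosis, from 2.40 ± 0.195 to 5.64 ± 0.566 FPKM, *Pclaf*, a PCNA partner, from 1.10 ± 0.242 to 2.42 ± 0.177 FPKM, and *Pold4*, a small polymerase δ subunit, from 8.06 ± 0.625 to 11.0 ± 1.12 FPKM (SD, n = 3 per group). The *Pold4* call ended with no filter, median-ratio scaling, upper-quartile scaling and no mean-variance trend (adjusted p = 0.0813, 0.097, 0.0915 and 0.0778). Of 13 genes of replication-coupled chromatin, *Uhrf1*, which guides DNA methylation to new strands, rose from 1.60 ± 0.0848 to 3.24 ± 0.283 FPKM, and *Asf1b*, a histone chaperone of dividing cells, from 0.675 ± 0.0803 to 1.30 ± 0.0356 FPKM. Among 21 genes of the E2F, RB and G1/S cyclin list, *Ccna2*, the S-phase cyclin, rose from 2.32 ± 0.328 to 4.61 ± 0.149 FPKM and *E2f2*, an activating E2F, was 0.361 ± 0.0519 and 0.770 ± 0.0144 FPKM. *E2f2* passed the filter through its cKO libraries alone, so its call has no weight of its own, and it ended with no filter (adjusted p = 0.05). Of 25 nucleotide metabolism genes, 1 was called higher, a share near the 3.67% of all tested genes, and that list's median was 0.10. This was *Shmt1*, which feeds thymidylate synthesis with one-carbon units, at 0.492 ± 0.0832 and 0.991 ± 0.0410 FPKM, and its call ended with no filter (adjusted p = 0.0547) and with any 1 library left out (adjusted p from 0.0588 to 0.124). Only 1 control library of *Shmt1* reached 0.5 FPKM, so it passed the filter through its cKO libraries and its call has no weight of its own. *Top2a*, *Uhrf1* and *Ccna2* passed in all alternatives run, whereas *Pclaf*, *Asf1b*, *Pold4* and *E2f2* each lost the call in some of the fits with 1 library left out. None of 10 licensing control genes and none of 15 checkpoint genes passed (limma), with medians of 0.25 and 0.26. At an unadjusted p under 0.05, 2 and 4 of them were higher, against 16.5% of all tested genes.

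Most genes of the mitosis list rose. Of its 18 genes, 16 were called higher and none lower, with a median log2 fold change of 0.89, and *Cdc20*, *Mki67*, *Ube2c* and *Kif11* had values of 1.36, 1.23, 1.46 and 1.05. The largest of the 43 tested replication members was 0.95, and the smallest of the 18 mitosis genes was 0.67. The lists were not set against each other in a test.

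**Figure D4:**
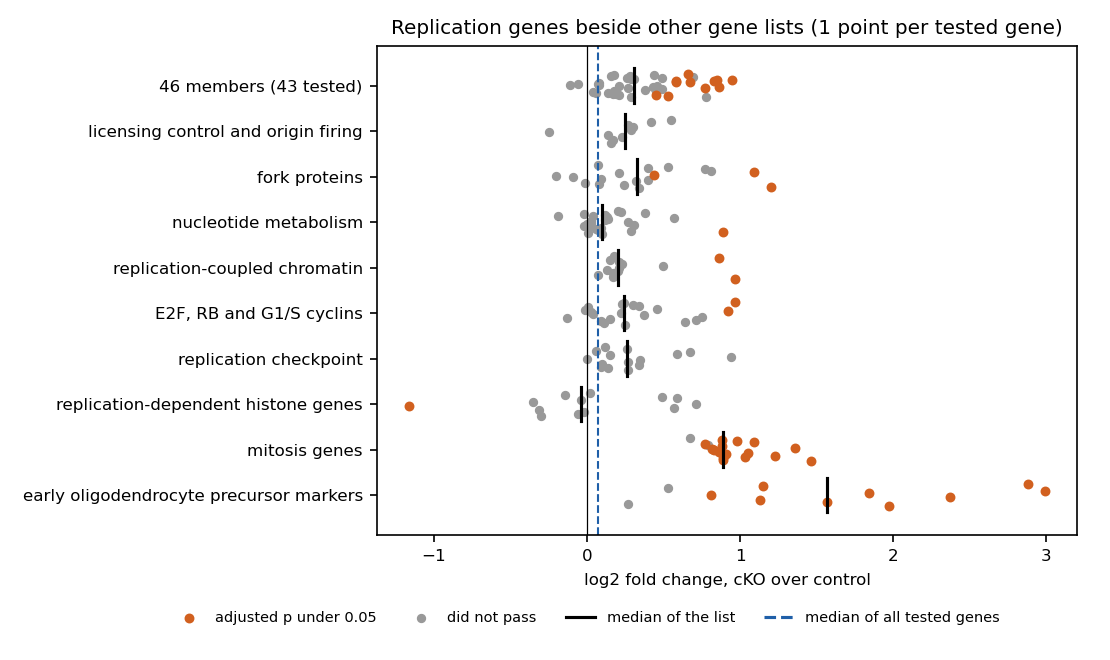
Log2 fold change (cKO over control) of each tested gene in the replication set and in 9 other lists, with genes at an adjusted p under 0.05 in orange, the median of each list as a black bar and the median of all tested genes (0.07) as a dashed line. The replication members centre on 0.31, the mitosis genes on 0.89 and the oligodendrocyte lineage markers (labelled early oligodendrocyte precursor) on 1.57.

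Marker lists of other cell types differed in how they moved. Of 11 oligodendrocyte lineage markers 9 rose, with a summed level of 122 to 152 FPKM in the controls against 316 to 401 FPKM in cKO cortex. *Olig2* rose by 1.57 and *Sox10* by 1.97 on the log2 scale. All 11 markers were higher at an unadjusted p under 0.05 (limma), against 16.5% of all tested genes. The 2 that did not pass, named after their values were seen, were *Pdgfra* (log2 difference 0.27, SE 0.08, adjusted p = 0.102) and *Cspg4* (0.53, SE 0.13, adjusted p = 0.064), which define the dividing precursors. The list also holds *Gpr17*, *Bcas1* and *Enpp6*, which are known from cells committed to become oligodendrocytes, with values of 1.84, 2.88 and 2.99. The list of 14 progenitor and neuroblast markers had summed levels of 86.1 to 100 FPKM and 84.7 to 97.1 FPKM, and *Hes5*, a Notch target among them, fell from 9.13 ± 1.28 to 1.60 ± 0.269 FPKM. Astrocyte markers fell in 7 of 10 cases, with summed levels of 342 to 430 FPKM and 119 to 209 FPKM. Summed microglia markers were 78.9 to 101 FPKM in the controls against 113 to 187 FPKM in cKO cortex. None of 10 was called (limma) and 7 were higher at an unadjusted p under 0.05, against 16.5% of all tested genes. Summed endothelial markers were 43.4 to 52.4 FPKM and 54.3 to 60.3 FPKM (1 of 8 higher, *Cdh5*, whose call ended with no filter at an adjusted p of 0.0822 and with median-ratio scaling at 0.0714), and meningeal fibroblast markers 26.1 to 30.0 FPKM and 49.7 to 95.0 FPKM (3 of 7 higher, *Dcn*, *Lum* and *Col3a1*). No marker of these 6 lists was at 0 in all libraries. More dividing cells and more replication RNA per cell cannot be told apart in bulk tissue, and the part that these cell types have in the replication result was not tested.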

How the data were processed

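RNA of 6 cortex samples (3 control, 3 cKO) was sequenced after VAHTS Universal V6 library preparation, per the labels' protocols. Per the submitters' processing notes, mm10 served as the genome. Which aligner and counter were used, and whether strand was read, is not given in the sources used here. For each library, the authors deposited FPKM, per the file headers, in a table named for raw counts, and the 6 per-library tables repeated its values exactly. Depth was inferred from single-transcript genes, whose low values were whole multiples of 1 fragment (94.0% to 94.8% of values within 0.02 fragments). In genes with several transcripts, as most members are, the effective length is unknown, so no count test was run and fragment numbers are approximate.

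A gene had to reach 0.5 FPKM in 3 or more libraries and was then tested on log2(FPKM + 0.1) with limma 3.58.1 in R 4.3.3 (mean-variance trend, robust estimation, group as the only term), and p-values were adjusted across all 14147 genes by the Benjamini-Hochberg method. Fold changes refer to this scale, and those of low genes are understated by it. An adjusted p under 0.05 was called. The steps were checked on simulated data. The members and gene lists were chosen with earlier results of these data known, so counts over them are descriptive. From each other list the rule allowed up to 4 called genes by smallest p to be named or, with none called, the 2 most abundant, not all of which appear in the text. The result of 1 marker gene is not reported here. *Rrm2b*, *Tk2* and *Mcm8* appear as ratio partners, and *Ttr* and overlapping genes as checks. Coordinates are those of the deposited tables. Exon overlaps came from GENCODE M21 and promoters from RefSeq (GRCm38.p6), where 39 of 46 members matched by symbol. Ratios were tested in SciPy 1.17.1. Alternatives varied the filter, pseudocount, scaling, variance model, replicate block and each library left out.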

Additional observations from a re-analysis of the deposited data

How the results depend on the processing

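Under the 16 alternatives no member that rose changed direction. The number of genes called over the whole table was 783. It was 499 with no filter, 456 with the replicate number as a block and 210 to 813 with 1 library left out. Equal sums gave the most, 1151, whereas median-ratio and upper-quartile scaling gave 658 each and no mean-variance trend 634. The remaining alternatives gave 765 to 809. The number of members that rose was 11, and it was 9 to 14 under the other filters, pseudocounts, scalings and variance models, 5 with the replicate block (*Mcm2*, *Mcm3*, *Mcm5*, *Mcm6* and *Pold1*) and 2 to 10 with 1 library left out. The 14 with equal sums hold all 11, the 13 with no mean-variance trend hold 10 of them, and the 10 without control replicate 3 hold 9. Same-numbered samples deviated together only weakly (correlations of 0.0606, 0.0116 and 0.10 across genes), so the labels' numbers were not treated as pairs. Some genes that did not pass changed sign. With median-ratio and upper-quartile scaling the log2 differences were -0.004 and -0.001 for *Orc3*, -0.03 and -0.03 for *Rfc3*, and -0.01 and -0.004 for *Rfc5*. With 1 library left out they ranged from -0.01 to 0.14 for *Orc3*, -0.17 to 0.03 for *Orc4*, -0.15 to 0.14 for *Rfc3* and -0.02 to 0.15 for *Rfc5*, and the *Rrm2* to *Rrm1* ratio differed by -0.02 to 0.19. Depth was thinnest for *Orc1* (about 8 to 27 fragments per library) and *Cdc6* (9 to 40), and among tested members *Tk1* rested on about 20 to 56.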

Other observations

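Replication-dependent histone genes, which supply the proteins that package new DNA, were looked at beside the replication members. They were taken as all symbols that start with Hist1h, Hist2h, Hist3h or Hist4h. That rule takes in a pseudogene and does not check that each gene is active in S phase. The table holds 69 such symbols, of which 43 stayed under 0.5 FPKM in every library, 9 of them at 0 throughout, and 13 were tested. None rose and 1 fell (limma), and the median log2 fold change was -0.04. At an unadjusted p under 0.05, 3 were higher, against 16.5% of all tested genes. The summed level of the 69 genes was 117 to 134 FPKM in the controls against 109 to 147 FPKM in cKO cortex, so the groups overlapped. With most of the genes this low, the sum rests on the few abundant ones and does not measure the histone supply of S phase. The gene that fell, *Hist2h2aa2*, measured 5.167, 6.358 and 5.938 FPKM in the controls against 1.884, 3.338 and 2.613 FPKM in cKO cortex. *Hist2h2aa1* was at 0 in all libraries except cKO replicate 3, at 15.84 FPKM. Copies of this family are nearly identical, so fragments can be split between them and single values are uncertain. Their transcripts mostly lack a poly(A) tail, and the labels do not say whether poly(A) RNA was selected.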
